A study of Mus musculus with 2 samples.

Results

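The miR-29 family was described from the deposited miRNA table by taking every mature miRNA named miR-29a, miR-29b or miR-29c, with or without a copy number, on either arm of its hairpin. RefSeq names 7 such strands, and 6 of them are among the 281 miRNAs that the table lists. The seventh, miR-29a-5p, is not analysed here. The table compares small RNA of a liver labelled DICER1 mutant with that of a wild-type liver, each of C57BL/6 background at 3 months of age and each represented by 1 library. The column headers call the mutant hDICER1_Mut, and the labels give neither the variant, nor how it was introduced, nor the number of animals behind a library. The series text speaks of liver cancer and of a mouse model of DICER1 syndrome, but the labels do not say whether the mutant sample was tumour. The mutant library held 18480608 reads and the wild-type library 11432192, as implied by the deposited RPM, a read count scaled to a common library size, and the listed miRNAs took 61.2% and 81.8% of them. Every listed miRNA had a signed fold of at least 2 in size in the authors' deposited table, so a strand that differed little on the authors' scale could not appear. With 1 library per genotype no test was possible, genotype and individual library cannot be told apart, and every interval below is a 95% interval that covers counting error only.

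MicroRNAs are cut from hairpins by Dicer, whose RNase IIIb domain frees the strand on the 5′ side (5p) and whose RNase IIIa domain frees the strand on the 3′ side (3p). In each miR-29 hairpin the 3p strand is the guide that is loaded onto Argonaute, and the 5p strand is the passenger. The guides repress mRNAs of extracellular matrix proteins, such as fibrillar collagens and elastin, and of the de novo DNA methyltransferases. In the liver they are known for restraining collagen synthesis in hepatic stellate cells, the main matrix-producing cells in fibrosis.

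The mature strands are shown because the guides share their target-recognition seed and differ little elsewhere. The sequences come from RefSeq (GRCm38.p6), all 7 names matched, and capitals mark the seed, bases 2 to 8.
miR-29a-3p: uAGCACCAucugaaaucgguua
miR-29c-3p: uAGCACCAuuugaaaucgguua
miR-29b-3p: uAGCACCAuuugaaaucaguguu
miR-29c-5p: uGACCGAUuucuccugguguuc
miR-29b-1-5p: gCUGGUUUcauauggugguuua
miR-29b-2-5p: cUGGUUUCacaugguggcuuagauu
All 3 guides carry the same seed, which no other mature mouse miRNA in the RefSeq table holds, and within the family each passenger has a seed of its own. Counted from the 5′ end, miR-29a-3p and miR-29c-3p differ at 1 of 22 bases (C10U), outside the seed. miR-29c-3p and miR-29b-3p differ at 3 of 22 aligned bases (G18A, U21G and A22U). How the authors assigned a read that fits both miR-29a-3p and miR-29c-3p with 1 mismatch is not stated in the labels. The passengers miR-29b-1-5p and miR-29b-2-5p overlap over 21 bases, with the second starting 1 base later, and differ there at U11C and U19C, counted in miR-29b-1-5p.

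The 4 hairpins lie in pairs on 2 chromosomes. On the minus strand of chromosome 6 (GRCm38), Mir29a at 31062660 to 31062747 and Mir29b-1 at 31063023 to 31063093 are separated by 275 bases. GENCODE M21 places no host gene over Mir29a, and only 2 bases of Mir29b-1 overlap an exon of the lincRNA Gm27019. On the plus strand of chromosome 1, Mir29b-2 at 195037040 to 195037120 and Mir29c at 195037547 to 195037634 are separated by 426 bases. Both lie in exon 3 of a retained-intron transcript of the noncoding gene A330023F24Rik, and opposite exon 11 of Cd46. Because Mir29b-1 and Mir29b-2 give the same guide, the reads of miR-29b-3p cannot be divided between the chromosomes. The Mir29c hairpin is shown because its strands differed most within the family, with both mature strands in capitals, the 5p strand first.
Mir29c: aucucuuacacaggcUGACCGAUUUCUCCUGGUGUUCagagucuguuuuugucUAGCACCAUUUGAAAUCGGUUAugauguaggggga

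The letters that pair with the shared seed, TGGTGCT, were searched on the transcript strand of 3′ untranslated regions, taking the longest annotated region of each gene. They occurred in 2751 of 20644 mouse genes with a region of at least 50 bases (13.3%) and in 11 of 12 genes picked here as known miR-29 targets or relatives of them. Because the 12 were picked as targets, and the 13.3% is not matched for length, the comparison of these counts is no test. The mRNAs were not measured in this study, and a match describes the sequence alone. Examples are shown with the match in capitals, in GENCODE transcripts of GRCm38.
Col1a1, chr11:94952526-94952555, plus strand: ggaaggaatttcTGGTGCTatagaagctga
Col3a1, chr1:45348970-45348999, plus strand: aaaatgtctcaaTGGTGCTataataaataa
Eln, chr5:134703726-134703755, minus strand: cctcatcaacgtTGGTGCTactgcttggtg
Col1a1 and Col3a1 encode fibrillar collagen chains and each held 1 match, in regions of 1423 and 959 bases. Among genes with regions within 1.2 times those lengths, 13.1% and 9.21% held a match. Eln, which encodes elastin, held 3 matches in 1188 bases, a length at which 11.8% of genes held at least 1. Col1a2 was the gene without these letters in its 882 bases. Dnmt3a, a de novo DNA methyltransferase, held 5 matches in 6696 bases, a length at which 45.1% of genes held at least 1.

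By RPM, though not under most other scalings, the family as a whole was close to its wild-type level and only miR-29c-3p was called lower in the mutant. Summed over the 6 listed strands, the family had 53893 reads or 2916 RPM in the mutant liver and 40436 reads or 3537 RPM in the wild-type liver. The ratio of 0.824 (interval 0.814 to 0.835) turned above equality when the libraries were scaled to the sum of listed reads (log2 ratio 0.14). Under every other scaling the family was lower than by RPM, at log2 ratios of -0.86 to -3.004, and at -1.53 with the authors' library factors. A strand was called lower or higher when it differed at least 2-fold by RPM with an interval excluding equality. By this rule 1 of the 6 strands was lower, none was higher and 5 were neither. Among all 276 listed miRNAs with at least 10 reads, 20 were lower (7.25%) and 171 were higher (62.0%). Under the other 5 scalings tried, 5.07% to 38.0% of them were lower and 27.2% to 62.0% were higher, with 55.1% higher by edgeR's TMM factors. Of the miR-29 strands, 1 to 6 were lower and none was higher under those scalings. All 6 have a negative deposited fold, and the 2-fold listing on the authors' scale leaves such a strand no call of higher by RPM or these scalings. The listing likewise puts every miRNA with a positive deposited fold above 2-fold by RPM, so the 62.0% was fixed too. At a fold limit of 3 by RPM no miR-29 strand was lower, against 4.35% of all.

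The guides gave nearly all reads of the family. miR-29a-3p, the most abundant, had 47249 reads in the mutant liver and 31585 in the wild-type liver, or 2557 and 2763 RPM. Its ratio of mutant to wild type was 0.925 (interval 0.912 to 0.939), a small difference by RPM that turned to the other sign when the libraries were scaled to the sum of listed reads. Under every other scaling miR-29a-3p was further below equality, at log2 differences of -0.70 to -2.84, and at -1.37 with the authors' library factors. miR-29c-3p, next in abundance, had 4322 reads in the mutant liver and 7202 in the wild-type liver, or 234 and 630.0 RPM. It was 2.69-fold lower in the mutant (interval 2.59 to 2.80), and its log2 difference was -1.43. miR-29b-3p, which both clusters encode, had 2155 reads in the mutant liver and 1493 in the wild-type liver, or 117 and 131 RPM. Its ratio of 0.893 (interval 0.835 to 0.954) was close to that of miR-29a-3p. The order of the guides was the same in both libraries, with miR-29a-3p above miR-29c-3p and miR-29c-3p above miR-29b-3p, and no counting intervals of neighbours overlapped.

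The passengers were rare. miR-29c-5p had 133 reads in the mutant liver and 129 in the wild-type liver, or 7.20 and 11.3 RPM, a ratio of 0.638 (interval 0.497 to 0.819). It was lower in the mutant but within 2-fold. miR-29b-1-5p had 20 reads in the mutant liver and 16 in the wild-type liver, or 1.08 and 1.40 RPM, and miR-29b-2-5p had 14 and 11 reads, or 0.758 and 0.962 RPM. Their ratios were 0.773 (interval 0.381 to 1.60) and 0.787 (interval 0.332 to 1.92), so a difference of either sign was not detectable at this depth. For scale, 3 reads correspond to 0.162 RPM in the mutant and 0.262 RPM in the wild-type library.

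**Figure D1:**
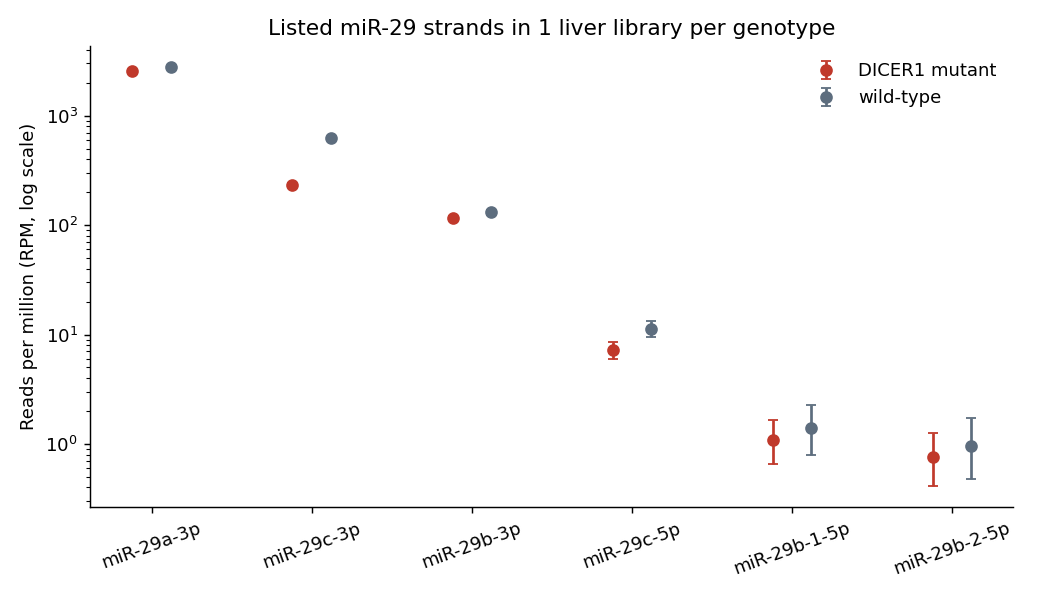
RPM (log scale) of the 6 listed miR-29 strands in the DICER1 mutant and the wild-type liver, 1 library each; bars are exact Poisson 95% intervals of the read count. The libraries lie furthest apart for miR-29c-3p, at 234 RPM in the mutant and 630.0 RPM in the wild type, and the intervals of both miR-29b passengers overlap.

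The make-up of the family differed between the libraries, a comparison that does not depend on how they are scaled. miR-29c-3p made up 8.02% of the miR-29 reads in the mutant liver (exact binomial interval 7.79 to 8.25) and 17.8% in the wild-type liver (17.4 to 18.2). miR-29a-3p made up 87.7% in the mutant liver (87.4 to 87.9) and 78.1% in the wild-type liver (77.7 to 78.5). miR-29b-3p held 3.999% in the mutant liver and 3.69% in the wild-type liver, with overlapping intervals of 3.83 to 4.17 and 3.51 to 3.88. The share of miR-29c-3p was smaller in the mutant and that of miR-29a-3p larger, each by more than counting error. On the RPM scale miR-29c-3p accounted for 396 of the 621 RPM by which the family was lower in the mutant, or 63.8%, and miR-29a-3p for 206 RPM. Unlike the shares, this split depends on the scaling and holds by RPM only. With the sum of listed reads the family was not lower (log2 ratio 0.14). With the authors' library factors the abundant miR-29a-3p was itself lower, at a log2 difference of -1.37.

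**Figure D2:**
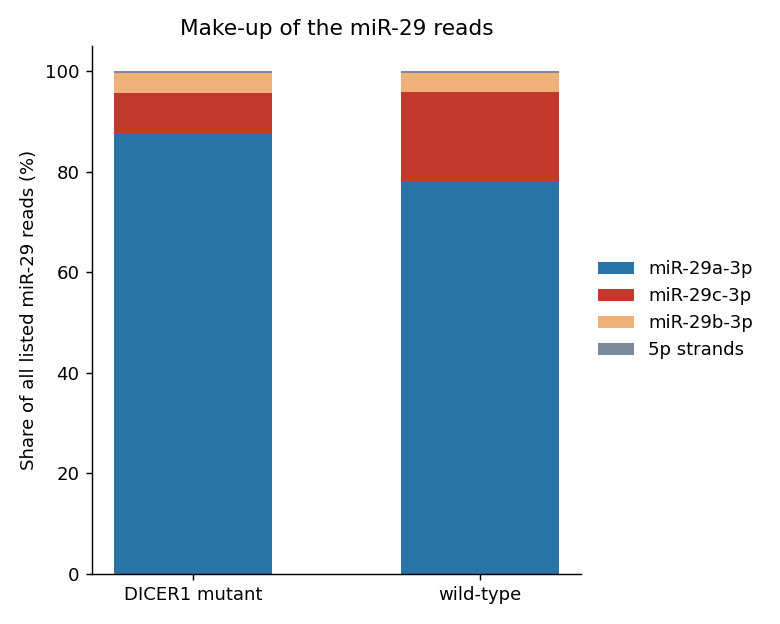
Share in percent of each strand in all listed miR-29 reads, in the DICER1 mutant and the wild-type liver, 1 library each. miR-29c-3p takes 8.02% in the mutant and 17.8% in the wild type, and miR-29a-3p 87.7% and 78.1%.

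Members were then set against each other by odds ratios of their reads, which also need no scaling. There were 10.9 reads of miR-29a-3p per read of miR-29c-3p in the mutant liver and 4.39 in the wild-type liver, an odds ratio of 2.49 (Woolf interval 2.39 to 2.60). miR-29b-3p likewise gained on miR-29c-3p, with 0.499 reads per read of miR-29c-3p in the mutant liver and 0.207 in the wild-type liver, an odds ratio of 2.40 (interval 2.23 to 2.59). miR-29a-3p and miR-29b-3p kept close to the same proportion, with 21.9 reads of miR-29a-3p per read of miR-29b-3p in the mutant liver and 21.2 in the wild-type liver, an odds ratio of 1.04 (interval 0.969 to 1.11). Of the 15 pairs of members, 6 had an interval excluding equality, and each of the 6 involved miR-29c-3p or miR-29c-5p. These intervals were not adjusted over the pairs.

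Beside miR-29a-3p and miR-29c-3p, each of which comes from 1 cluster, the miR-29b passengers compare the clusters on chromosomes 6 and 1, since their names carry the copy. miR-29b-1-5p, from chromosome 6, held 58.8% of the 34 miR-29b passenger reads in the mutant liver (interval 40.7 to 75.4) and 59.3% of the 27 in the wild-type liver (interval 38.8 to 77.6). The odds ratio of miR-29b-2-5p, from chromosome 1, against miR-29b-1-5p was 1.01, with an interval of 0.3698 to 2.79 that includes shifts of more than 2-fold either way. Within the chromosome 1 pair, the ratio of mutant to wild type was 0.371 for miR-29c-3p, 0.638 for miR-29c-5p and 0.787 for miR-29b-2-5p. The odds ratio of miR-29b-2-5p against miR-29c-3p was 2.10, with an interval of 0.968 to 4.56, and against miR-29c-5p it was 1.22 (interval 0.544 to 2.75). With 14 and 11 reads of miR-29b-2-5p, these data do not settle whether the lower miR-29c-3p extended to its cluster neighbour.

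The strand balance of Mir29c shifted towards the 5p strand in the mutant. Of the reads from this hairpin, 2.99% were 5p in the mutant liver (exact binomial interval 2.51 to 3.53) and 1.76% in the wild-type liver (1.47 to 2.09). The odds ratio of 5p against 3p was 1.72 (Woolf interval 1.34 to 2.19), or 0.78 on the log2 scale. Both strands were lower by RPM, the guide more so than the passenger. For miR-29b, with the reads of both passengers summed, 5p reads were 1.55% in the mutant liver and 1.78% in the wild-type liver, and the log2 odds ratio of -0.20 had an interval of -0.93 to 0.53.

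Most other hairpins shifted the other way. Over the 62 listed hairpins with both arms listed and at least 10 reads per arm, the median log2 odds ratio was -0.53, and 12 hairpins lay above 0. The interval lay wholly above 0 for 2 hairpins and wholly below 0 for 35. The 2 above 0 were mir-29c and mir-199b, and the 3p reads of mir-199b carry the same counts as those of miR-199a-3p and may be shared with it. Only mir-582 and mir-199b had a higher odds ratio than mir-29c. mir-29b stood nearer the middle, with 22 hairpins above it. These are the hairpins whose arms both passed the authors' listing, and the difference between mir-29c and the others has no replicate check.

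**Figure D3:**
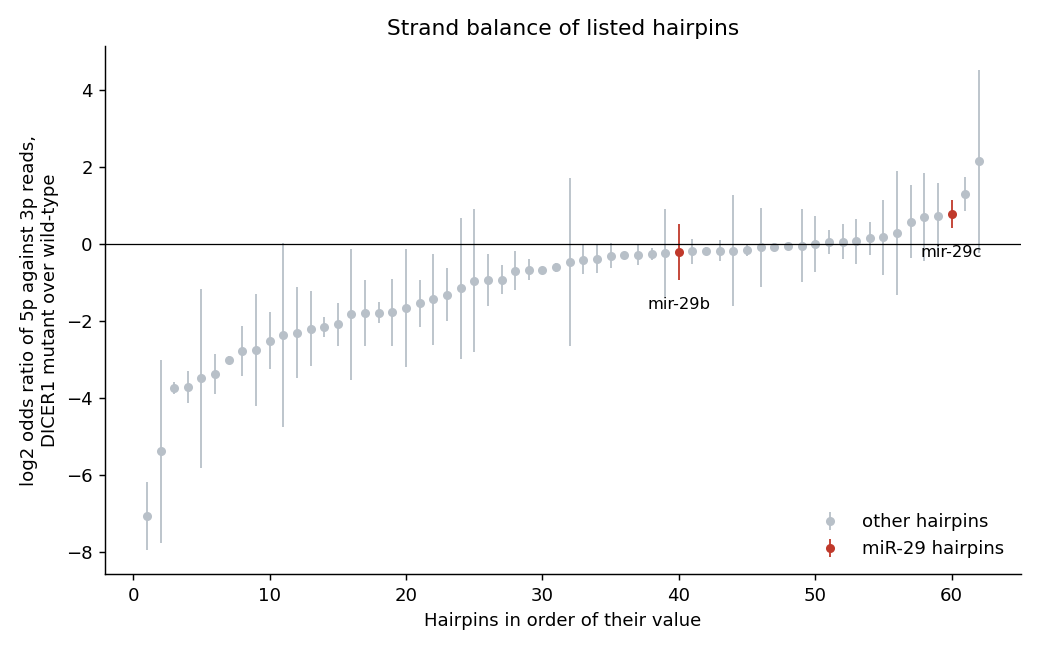
Log2 odds ratio of 5p against 3p reads, DICER1 mutant over wild-type, for 62 listed hairpins in rising order; points are hairpins, bars are Woolf 95% intervals and the miR-29 hairpins are in red. The value of mir-29c is 0.78 and that of mir-29b is -0.20, against a median of -0.53.

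Among listed miRNAs, the family sat in the lower group of the comparison. By RPM the median log2 difference was -0.35 over the 6 miR-29 strands and 2.74 over the 276 listed miRNAs. Over the 105 listed miRNAs with a negative deposited fold the median was -0.60, so the family was not unusually low within that group. The authors' deposited table gives a negative signed fold for all 6 members, and for 110 of its 281 miRNAs (39.1%). There the members ran from -2.58 for miR-29a-3p, the member nearest the listing limit, to -6.42 for miR-29c-3p. Of the 52 listed miRNAs with at least 100 RPM in the wild-type liver, 3 had a lower ratio of mutant to wild type than miR-29c-3p. These were miR-3470b, miR-1948-3p and the hepatocyte miRNA miR-192-5p, which was 2.78-fold lower. By reads, miR-29c-3p was the 68th most abundant listed miRNA in the mutant library and the 28th in the wild-type library, and miR-29a-3p was the 25th in the mutant and the 19th in the wild-type library.

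**Figure D4:**
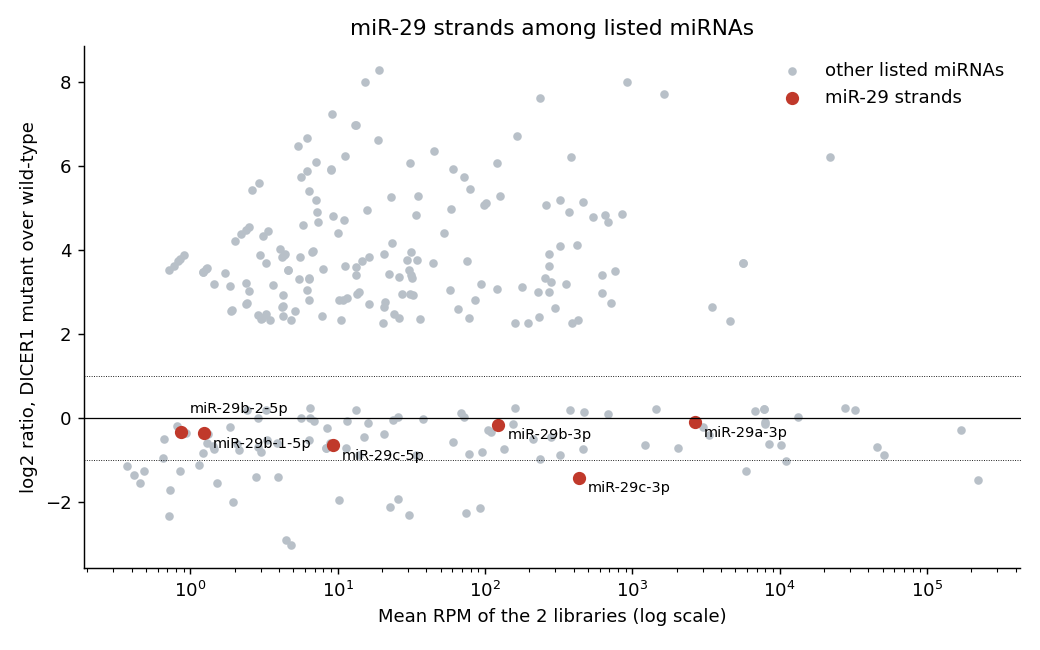
Log2 ratio of DICER1 mutant over wild-type against the mean RPM of the libraries (log scale), for 276 listed miRNAs with at least 10 reads; miR-29 strands are in red and dotted lines mark 2-fold. miR-29c-3p lies below the lower line at -1.43 and the other 5 strands lie between the lines; the empty band above 0 holds no listed miRNA.

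The miRNAs nearest to miR-29a-3p in ratio, among those with at least 1000 reads, were miR-30e-5p at 0.927, miR-26b-5p at 0.905 and miR-802-5p at 0.896. This likeness rests on the difference of the log2 ratio over 2 libraries, which was at most 0.05. Other families with several guides were also uneven. The listed guides of the miR-30 family with at least 100 RPM in the wild type spanned a 2.14-fold range of ratios, between miR-30b-5p and miR-30a-5p. Those of miR-101 spanned a 1.81-fold range, those of miR-26 a 1.31-fold range and those of let-7 an 8.23-fold range. The 2.49-fold range within miR-29 lay between those of the miR-30 and let-7 guides. All 3 of the miR-30, miR-101 and miR-26 groups had members on both sides of equality by RPM, whereas all 6 listed miR-29 strands were below it by RPM and 2 of them with the sum of listed reads. With the authors' library factors, 6 of 8 listed miR-30 strands were below equality, as were 6 of 8 of miR-101 and miR-26 together. There the strands above equality were 3p passengers of miR-30 and miR-26, so the contrast was not one between guides.

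Hepatocyte miRNAs took most listed reads in both libraries, and more than any other marker list. The 13 listed strands of 8 hepatocyte hairpins summed to 334422 RPM in the mutant liver and 614862 RPM in the wild-type liver, with 3 strands lower and none higher. miR-192-5p was the most abundant of them. The 6 listed strands of stellate and mesenchymal cells, from 3 of 6 hairpins on that list, summed to 22735 RPM in the mutant liver and 1779 RPM in the wild-type liver, and all 6 were higher. miR-199a-3p was the most abundant and 12.8-fold higher. All 8 listed leukocyte strands, from 5 of 5 hairpins, were higher, and they summed to 9999 RPM in the mutant liver and 1862 RPM in the wild-type liver. Their most abundant strand, miR-142a-5p, was 4.95-fold higher. Of 8 biliary and epithelial strands, from 6 of 6 hairpins, 7 were higher, and their sums were 4946 RPM in the mutant liver and 610.2 RPM in the wild-type liver. miR-200b-3p led that list at 28.8-fold higher. These counts by RPM stand against 62.0% higher and 7.25% lower over all listed miRNAs. By RPM no listed miRNA lay between a ratio of 1.19 (miR-26a-5p) and 4.78 (miR-150-5p), a gap left by the 2-fold listing. Every strand with a positive deposited fold was therefore called higher by RPM, so these counts of higher strands were fixed by the listing. With DESeq2 size factors, under which 27.2% of all were higher and 38.0% lower, 2 of the 6 stellate, 2 of the 8 leukocyte and 5 of the 8 biliary strands were higher, and all 13 hepatocyte strands were lower. All 13 were also lower with the authors' library factors, where the 2-fold listing leaves no strand with a negative fold within 2-fold. Neither hairpin of the endothelial list is analysed here. In RNA of whole tissue, fewer cells of a type and less RNA per cell cannot be told apart, and the part that these differences in cell markers play in the miR-29 values was not tested.

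Of 8 listed strands linked to liver fibrosis other than miR-29 that had at least 10 reads, 4 were higher and 4 were neither by RPM, against 62.0% higher over all listed miRNAs. The list mixes miRNAs reported to promote fibrosis with others reported to limit it, so its counts and sum have no single direction. The 4 higher strands were both arms of miR-34a and both arms of miR-200a. As with the marker lists, a positive deposited fold fixed that call by RPM. With the authors' library factors, TMM or DESeq2 size factors the other 4 were lower. For strands with a negative deposited fold, the 2-fold listing on the authors' scale fixed this. Of the 9 hairpins on the list, 7 had a listed strand, and the summed level, led by miR-30a-5p, was 73860 RPM in the mutant liver and 99903 RPM in the wild-type liver. Of the 4 hairpins reported, like miR-29, to repress DNA methyltransferases, 2 are listed. Their 4 strands were called neither by RPM, with a median log2 difference of -0.57. All 4 were lower with the authors' library factors, TMM or DESeq2 size factors, which the 2-fold listing likewise fixed. miR-148a-3p, the most abundant of them, had a ratio of 0.620 (interval 0.618 to 0.622).

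Levels, unlike shares and odds ratios, depended on the scaling. The library factors behind the authors' log2 values, applied to RPM as an alternative chosen after seeing the data, made each ratio of mutant to wild type 2.38-fold smaller, a log2 shift of -1.253. There all 6 miR-29 strands were called lower, as were 38.0% of all 276 listed miRNAs, whose median log2 difference was 1.51. Because every listed miRNA had a deposited fold of at least 2 in size, one with a negative fold had to be at least 2-fold lower there. TMM and DESeq2 factors shifted ratios further down and called the same share lower, so these counts are not separate results. In the authors' deposited table itself, whose log2 values add 1 before the logarithm and so understate rare strands, miR-29b-1-5p differed by -0.87 and miR-29b-2-5p by -0.72, and the other 4 strands were at least 2-fold lower, as were 31.5% of all listed miRNAs. When the libraries were scaled to the sum of listed reads, ratios were 1.34-fold larger than by RPM, and miR-29a-3p, miR-29b-3p, miR-29b-1-5p and miR-29b-2-5p lay above equality but within 2-fold, at log2 differences of 0.31, 0.25, 0.05 and 0.07. For both miR-29b passengers this was within counting error. miR-29c-3p was at least 2-fold lower under all 6 scalings, with log2 differences of -1.01 with the listed sum to -4.16 with DESeq2 size factors. miR-29c-5p was also below equality under each, at -0.23 with the listed sum, which was within counting error.

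**Figure D5:**
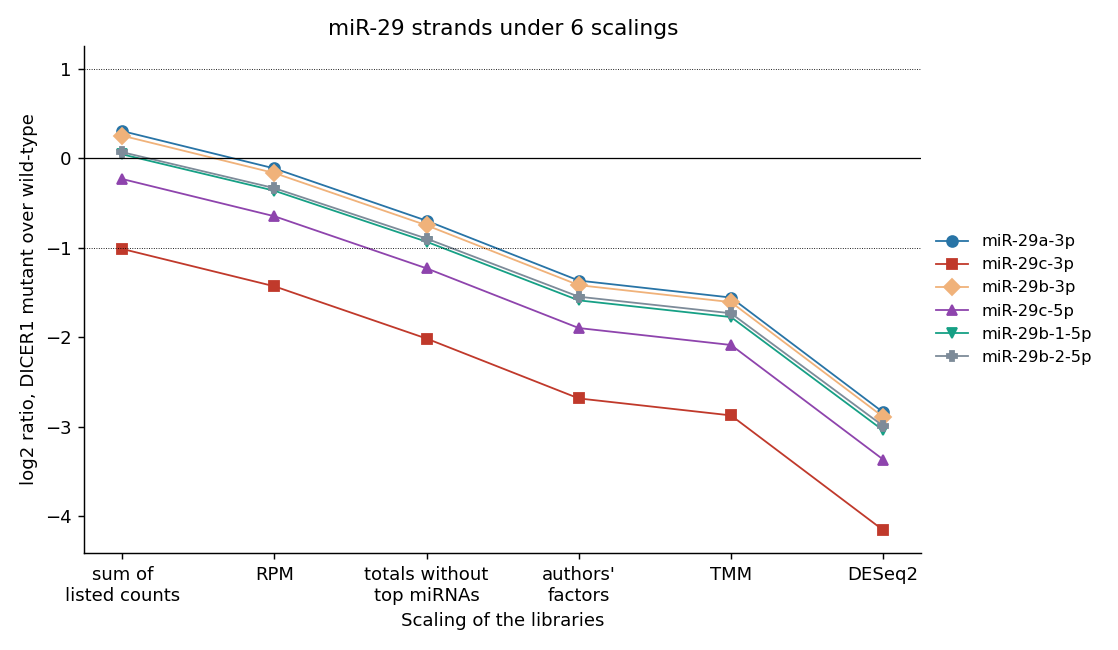
Log2 ratio of DICER1 mutant over wild-type for the 6 miR-29 strands under 6 scalings of the libraries; lines join the values of a strand and dotted lines mark 2-fold. miR-29c-3p is lowest throughout, at -1.43 by RPM, and 4 strands lie above 0 with the sum of listed counts.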

How the data were processed

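Small RNA libraries (SMARTer smRNA-seq kit) were sequenced single-end and mapped to mm10 and miRBase 22.1 with arms assigned from miRBase, per the labels' protocols. Cutadapt is named in the submitters' processing notes, without its settings. Neither an aligner nor a rule for multiply fitting reads is stated there. The authors deposited raw read counts per mature miRNA and RPM values from the same counts. They also deposited log2 normalized values, a signed fold score and p-values from 2 libraries, and these p-values were not used. How the authors derived their scaling is not stated.

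Library totals were taken as count divided by RPM. Ratios of RPM have exact conditional binomial (Clopper-Pearson) intervals, odds ratios Woolf intervals with 0.5 added to each count. Log2 differences used a pseudocount of 0.5 reads. PCR copies count as separate reads, and intervals reflect counting error alone. edgeR 4.0.16 and DESeq2 1.42.0 served for scaling factors alone. Calculations ran in Python 3.11.15 with scipy 1.17.1 and were tested on simulated counts. Named beyond the family were the most abundant strand of each marker list and the 3 miRNAs nearest miR-29a-3p; other miRNAs were named after their values were seen. The members and lists were chosen with earlier results of these data known.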

Additional observations from a re-analysis of the deposited data

How the results depend on the processing

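The log2 ratio of the summed family, -0.28 by RPM, was -1.53 with the authors' log2 values as deposited or their library factors applied to RPM (an alternative added after seeing the data), 0.14 with the sum of listed counts, -1.72 with edgeR's TMM factors, -3.004 with DESeq2 size factors and -0.86 with totals that leave out miR-192-5p and miR-22-3p. The 1 that the authors' log2 values contain was removed before summing, so the 2 values of -1.53 are not separate results. Apart from differences of the values as deposited, which contain that 1, each scaling adds the same constant to every strand. The count of miR-29 strands called lower, 1 by RPM, was 6 with the authors' library factors, TMM or DESeq2 size factors, each of which called 38.0% of all listed miRNAs lower. The 2-fold listing on the authors' scale fixed the 6 with the authors' factors, and TMM and DESeq2 factors shifted ratios further down. The count was 4 with the authors' values as deposited, against 31.5% of all, and 2 with the top miRNAs left out of the totals, against 21.0%. At a fold limit of 1.5 it was 2 (15.6% of all) and at a limit of 3 it was 0 (4.35%). It was 1 with the listed sum (5.07%) and with minimums of 0 or 100 reads. No setting called a miR-29 strand higher, which the listing also fixed because all 6 have a negative deposited fold. TMM and DESeq2 factors rest on listed miRNAs alone. The 5p against 3p odds ratios of mir-29b and mir-29c with 5 added to each count, and shares over guides only, stayed within the counting intervals of the values given; odds ratios between members were not recomputed. No paired analysis was possible because each genotype has 1 library, and for the same reason no library could be left out. The passengers of miR-29b, with 11 to 20 reads, are limited by depth.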
